A study of Rattus norvegicus with 15 samples.

Results

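The genes described here are 33 rat genes of sugar metabolism and of the response to low oxygen: 23 code for glucose transporters and for enzymes of glycolysis, pyruvate use and gluconeogenesis, and 10 for a subunit of the hypoxia-inducible factor (HIF), for its prolyl hydroxylases and for genes that HIF is known to switch on. They were chosen by name, with earlier results of these data known, and each was found on the array through the transcript accession of its probes. Probes were found for 32 genes (57 probes in all) and 30 genes passed the filter on dim probes, which leaves 21 glucose genes and 9 HIF genes among 19803 genes tested. Egln1 had no probe matched, and Hk1 and Hk2 were well above background on 0 of 15 arrays. The arrays were made to support grouping of naphthalene with related chemicals in the assessment of liver toxicity.

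The cells were cryopreserved primary hepatocytes of male rats, strain given as Wister, cultured for 24 h and then exposed for 24 h. The 5 groups received the solvent DMSO as control, or, at 30 µM, Naphthalene, 1-Naphthol, 2,7-Naphthalenediol or 1,5-Naphthalenediol. Naphthalene is the unsubstituted pair of fused rings, 1-Naphthol carries a hydroxyl group on a single ring, and the diols carry a hydroxyl group on each ring, at different positions. Each group has 3 arrays, described as independent experiments. How many animals gave the cells is not given in the sources used here, so the p-values measure the spread between these cultures. In such bulk RNA, fewer cells of a type and less RNA per cell cannot be told apart.

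Glycolysis splits glucose into pyruvate. Inside the mitochondria pyruvate dehydrogenase uses pyruvate unless a pyruvate dehydrogenase kinase blocks it, and lactate dehydrogenase otherwise turns pyruvate to lactate. The liver also runs the path backwards and releases glucose, through phosphoenolpyruvate carboxykinase, fructose bisphosphatase and glucose-6-phosphatase. HIF is made all the time and destroyed after prolyl hydroxylases (the Egln genes) mark it. When oxygen, iron or the co-substrate of these enzymes runs short, HIF stays and switches on its targets, among them many glycolysis genes, so that some of the glucose genes are HIF targets as well.

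Each array had 58717 gene spots. Between 57.4% and 61.0% of them were well above background, the 75th percentile of the processed signal lay between 1718 and 2074 intensity units, and no gene spot was saturated. Levels are given as log2 of the processed signal minus that array's 75th percentile, so that 0 is the 75th percentile, and a change is a difference of such levels; levels of different genes are not compared. Arrays of a group correlated at 0.9957 or more. The arrays lay on 2 slides: slide 1 held the DMSO and 2,7-Naphthalenediol arrays and 1,5-Naphthalenediol 1 and 2, and slide 2 held 1,5-Naphthalenediol 3 and the 1-Naphthol and Naphthalene arrays. Each comparison of 1-Naphthol or Naphthalene with DMSO is thus also one between slides, linked only through 1,5-Naphthalenediol. All 10 hepatocyte markers were well above background on every array. Of the macrophage markers 4 of 10 were, with Cd163, Clec4f, Marco, Csf1r and Adgre1 on no array, and the log2 level of their summed signal was 0.61 to 0.73 with DMSO, 0.69 to 0.83 with 2,7-Naphthalenediol, 0.91 to 0.96 with 1,5-Naphthalenediol, 0.81 to 0.87 with 1-Naphthol and 0.68 to 0.82 with Naphthalene. Of the bile duct markers with a probe 2 of 7 were, with Krt19, Spp1 and Cftr on no array, and their summed level was -1.08 to -0.82 with the 3 hydroxylated compounds against -0.68 to -0.57 with DMSO and -0.64 to -0.56 with Naphthalene. Markers of stellate cells (4 of 10), endothelial cells (3 of 8), lymphocytes (1 of 8) and red cells (1 of 3) were also in part well above background on all arrays. The part of these shifts in the changes below was not tested.

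Against DMSO the changes were small, and most of those that passed were falls. With 1,5-Naphthalenediol 2 members rose and 11 fell of 30, beside 22.1% of all genes called either way (9.41% up, 12.7% down). With 1-Naphthol 2 rose and 10 fell, beside 20.8% of all genes (10.2% up, 10.6% down). With Naphthalene 1 rose and 9 fell, beside 25.1% (12.5% up, 12.6% down). With 2,7-Naphthalenediol 2 rose and 3 fell, beside 11.0% (6.20% up, 4.84% down). The members' share called was furthest above the background with 1,5-Naphthalenediol and 1-Naphthol and closer to it with Naphthalene and 2,7-Naphthalenediol. No test was made of this order. The genes were chosen with earlier results of these data known, so nothing is read from it. A call is an adjusted p under 0.05 (limma, Benjamini-Hochberg over all genes tested), and the 4 comparisons share the DMSO arrays. The median change over the members was -0.06 with 2,7-Naphthalenediol, -0.09 with 1,5-Naphthalenediol, -0.10 with 1-Naphthol and -0.08 with Naphthalene, where the median of all genes lay between -0.02 and 0.00. One member, Pck1, passed the filter only through 1,5-Naphthalenediol, where it was high; over the other 29, which were well above background on all 15 arrays, 1 rose and 11 fell with 1,5-Naphthalenediol. By list, the glucose genes gave 1 rise (Pck1, from which nothing is read) and 9 falls of 21 with 1,5-Naphthalenediol, 1 and 6 with 1-Naphthol, 1 and 7 with Naphthalene, and 1 and 3 with 2,7-Naphthalenediol. The 9 HIF genes gave 1 rise and 2 falls, 1 and 4, 0 and 2, and 1 and 0 in the same order. Over the 5 groups together (moderated F test) 20 of 30 members differed, beside 44.7% of all genes; with the slide as a block it was 11, beside 26.2%. In all, 20 members, Pck1 among them, passed against DMSO with at least 1 compound, and 10 with none: Gpi, Pfkfb3, Gapdh, Pgk1, Pkm, G6pc1, Hif1a, P4ha1, Vegfa and Adm.

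**Figure D1:**
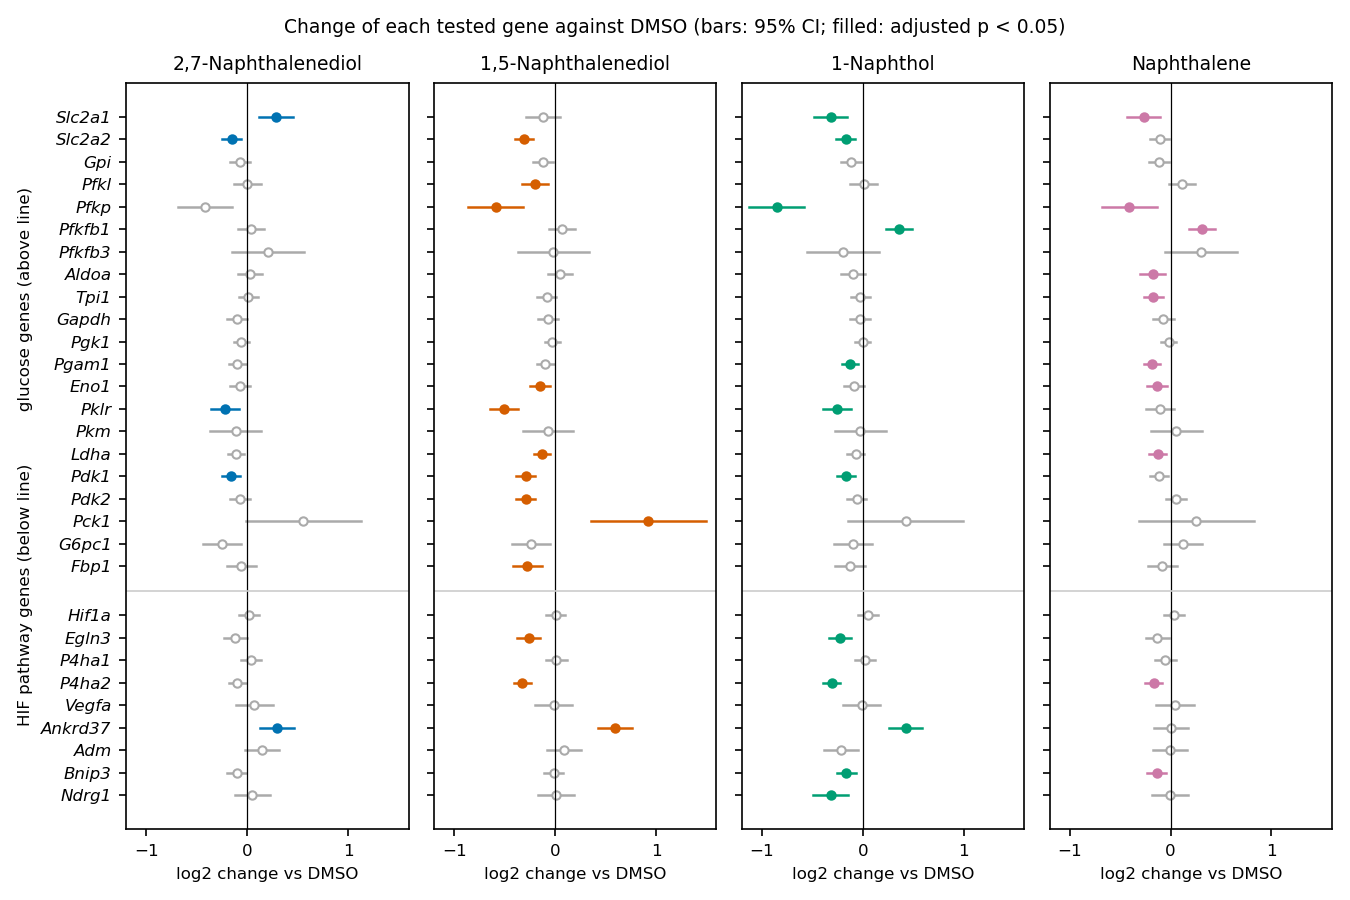
Log2 change against DMSO (x axis) of each of the 30 tested genes (y axis) for each compound, with the 95% confidence interval; filled points passed (adjusted p under 0.05) and grey open ones did not. Filled points lie mostly left of 0, Ankrd37 lies right of it with the 3 hydroxylated compounds (0.29, 0.60 and 0.42), and Pck1 has the widest intervals.

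The promoters of 5 members, picked by hand, are shown as examples. Ankrd37, P4ha2, Pdk1 and Egln3 fell or rose with more than 1 compound, and Slc2a1 moved in opposite directions. Bnip3, another HIF target that fell with more than 1 compound, is not shown. Each line gives the 250 bases before the start of transcription, 5′ to 3′ on the gene's strand, from RefSeq's build GRCr8. Capitals mark each ACGTG and GCGTG on either strand (read as CACGT and CACGC when it is on the other strand); ACGTG is the core that HIF reads, and GCGTG is read by HIF and is also the core of the element read by the aryl hydrocarbon receptor, which pairs with the same partner protein. The regions are chr16:53001257-53001506 on the plus strand for Ankrd37, chr10:38743644-38743893 on the plus strand for P4ha2, chr3:77113264-77113513 on the plus strand for Pdk1, chr6:77411016-77411265 on the minus strand for Egln3, and chr5:138002272-138002521 on the plus strand for Slc2a1.
Ankrd37: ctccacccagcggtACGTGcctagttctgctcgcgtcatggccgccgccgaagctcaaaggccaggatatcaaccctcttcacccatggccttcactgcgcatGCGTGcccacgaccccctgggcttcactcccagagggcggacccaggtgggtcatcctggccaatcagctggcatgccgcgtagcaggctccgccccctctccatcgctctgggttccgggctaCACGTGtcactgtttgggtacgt
P4ha2: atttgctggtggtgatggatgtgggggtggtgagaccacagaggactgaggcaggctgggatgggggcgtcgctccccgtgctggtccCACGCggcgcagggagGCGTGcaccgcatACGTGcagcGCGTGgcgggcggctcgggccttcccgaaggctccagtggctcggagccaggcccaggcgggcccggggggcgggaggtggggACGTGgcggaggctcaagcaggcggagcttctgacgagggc
Pdk1: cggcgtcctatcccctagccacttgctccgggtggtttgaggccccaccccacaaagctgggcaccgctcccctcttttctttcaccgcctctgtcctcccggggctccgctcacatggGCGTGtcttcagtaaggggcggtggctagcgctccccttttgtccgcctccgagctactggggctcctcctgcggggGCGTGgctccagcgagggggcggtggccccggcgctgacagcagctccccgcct
Egln3: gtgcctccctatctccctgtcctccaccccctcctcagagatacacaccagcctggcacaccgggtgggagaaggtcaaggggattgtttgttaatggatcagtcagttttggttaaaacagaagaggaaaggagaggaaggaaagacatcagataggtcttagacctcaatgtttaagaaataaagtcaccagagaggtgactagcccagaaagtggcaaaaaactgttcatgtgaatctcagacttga
Slc2a1: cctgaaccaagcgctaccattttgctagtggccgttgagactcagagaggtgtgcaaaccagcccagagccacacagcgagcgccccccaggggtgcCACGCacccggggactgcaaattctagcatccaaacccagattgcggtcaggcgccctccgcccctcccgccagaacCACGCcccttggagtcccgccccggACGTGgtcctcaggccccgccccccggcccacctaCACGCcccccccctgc

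The Ankrd37 window held 4 matches, of which a pair is the palindrome CACGTG, which reads ACGTG on both strands. The P4ha2 window held 5 matches, the Slc2a1 window 4, the Pdk1 window 2 (both GCGTG) and the Egln3 window 0. Promoters were found for 31 of the 33 genes (36 windows, since some genes have several starts). Of the 36 windows, 33.3% held ACGTG against 16.6% of all 33469 promoters, and 41.7% held GCGTG against 25.9%. CACGTG, which overlaps ACGTG, was held by 16.7% against 5.59%. Many of the genes were listed because they are known HIF targets, so nothing is read from these higher shares. Such matches are letters in a window, not shown to be bound.

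Of the glucose transporters, Slc2a2 (GLUT2, the liver's own high-capacity carrier) fell with each hydroxylated compound, and Slc2a1 (GLUT1, the widespread carrier and a known HIF target) moved up with 2,7-Naphthalenediol and down with 1-Naphthol and Naphthalene. Slc2a2 read 4.38, 4.43 and 4.41 on the DMSO arrays, 4.23, 4.25 and 4.28 with 2,7-Naphthalenediol, 4.06, 4.14 and 4.11 with 1,5-Naphthalenediol, 4.24, 4.24 and 4.24 with 1-Naphthol and 4.21, 4.31 and 4.38 with Naphthalene. All 9 arrays of the hydroxylated compounds were below all 3 DMSO arrays, the 1,5-Naphthalenediol arrays lowest, and the Naphthalene arrays spread from just below the 2,7-Naphthalenediol and 1-Naphthol arrays up to the level of the lowest DMSO array. The fall was 0.31 with 1,5-Naphthalenediol (SE 0.042, adjusted p = 0.000406, 0.809-fold), 0.17 with 1-Naphthol (SE 0.042, adjusted p = 0.0166) and 0.16 with 2,7-Naphthalenediol (SE 0.042, adjusted p = 0.0373). With Naphthalene the difference was -0.11 (adjusted p = 0.0779). On slide 1 by itself Slc2a2 was the 1 member of 30 called with 2,7-Naphthalenediol, beside 9.36% of all genes (adjusted p = 0.0478).

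Slc2a1 read -0.52, -0.24 and -0.21 with DMSO, -0.14, 0.01 and 0.01 with 2,7-Naphthalenediol, -0.42, -0.47 and -0.45 with 1,5-Naphthalenediol, -0.60, -0.64 and -0.70 with 1-Naphthol and -0.64, -0.51 and -0.62 with Naphthalene. DMSO array 1 lay well under DMSO arrays 2 and 3, the 2,7-Naphthalenediol arrays were above all others, and a Naphthalene array reached just above DMSO array 1. Slc2a1 rose by 0.28 with 2,7-Naphthalenediol (SE 0.076, adjusted p = 0.0349), and fell by 0.32 with 1-Naphthol (SE 0.076, adjusted p = 0.0142) and by 0.27 with Naphthalene (SE 0.076, adjusted p = 0.0254, the only called member whose arrays overlapped those of DMSO). With the slide in the model the 1-Naphthol value was -0.31 with adjusted p = 0.267 and the Naphthalene value -0.26 with adjusted p = 0.342.

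Phosphofructokinase, the main control step of glycolysis, has several subunits. Pfkp, the platelet form, gave the largest fall of any member. It read -2.20, -1.99 and -2.15 with DMSO, -2.29, -2.73 and -2.59 with 2,7-Naphthalenediol, -2.81, -2.75 and -2.55 with 1,5-Naphthalenediol, -2.86, -2.96 and -3.08 with 1-Naphthol and -2.70, -2.31 and -2.57 with Naphthalene. Every treated array was below every DMSO array, the 1-Naphthol arrays lowest, and the arrays within 2,7-Naphthalenediol and Naphthalene were spread widely. Pfkp fell by 0.85 with 1-Naphthol (SE 0.12, adjusted p = 0.00183, 0.553-fold), by 0.59 with 1,5-Naphthalenediol (SE 0.12, adjusted p = 0.00588) and by 0.41 with Naphthalene (SE 0.12, adjusted p = 0.0323). With 2,7-Naphthalenediol the difference was of like size, -0.42, and just missed (adjusted p = 0.0509). Both groups of that comparison lie on slide 1, so a slide block leaves the difference unchanged, while adjusted p became 0.0419. On slide 1 by itself Pfkp was not called there. With the block the 1-Naphthol fall was -1.08 with adjusted p = 0.0448, the 1 call of 1-Naphthol against DMSO that held. The Naphthalene value was then -0.64 with adjusted p = 0.144.

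Pfkl, the liver subunit, read -2.16, -2.17 and -2.09 with DMSO, -2.01, -2.20 and -2.20 with 2,7-Naphthalenediol, -2.35, -2.42 and -2.25 with 1,5-Naphthalenediol, -2.18, -2.11 and -2.10 with 1-Naphthol and -1.98, -2.01 and -2.08 with Naphthalene. The 1,5-Naphthalenediol arrays were below all others and the Naphthalene arrays just above those of DMSO, while the 2,7-Naphthalenediol and 1-Naphthol arrays overlapped DMSO. Pfkl fell by 0.20 with 1,5-Naphthalenediol (SE 0.06, adjusted p = 0.0321) and did not pass with the other compounds. Pfkfb1, the liver enzyme that makes and removes the activator of phosphofructokinase, read 2.61, 2.41 and 2.45 with DMSO, 2.62, 2.51 and 2.45 with 2,7-Naphthalenediol, 2.49, 2.60 and 2.58 with 1,5-Naphthalenediol, 2.85, 2.90 and 2.80 with 1-Naphthol and 2.84, 2.81 and 2.77 with Naphthalene. The 6 arrays of 1-Naphthol and Naphthalene stood above the other 9. It rose by 0.36 with 1-Naphthol (SE 0.059, adjusted p = 0.00303) and by 0.31 with Naphthalene (SE 0.059, adjusted p = 0.00482), and both lie on slide 2; 1,5-Naphthalenediol 3, also on slide 2, read with the low arrays, and with the slide as a block the values were 0.32 with adjusted p = 0.154 and 0.27 with adjusted p = 0.2. Pfkfb3, the inducible form and a HIF target, and Gpi, the isomerase after hexokinase, passed with no compound (Pfkfb3 from -0.19 with 1-Naphthol to 0.30 with Naphthalene; Gpi from -0.12 to -0.07).

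**Figure D2:**
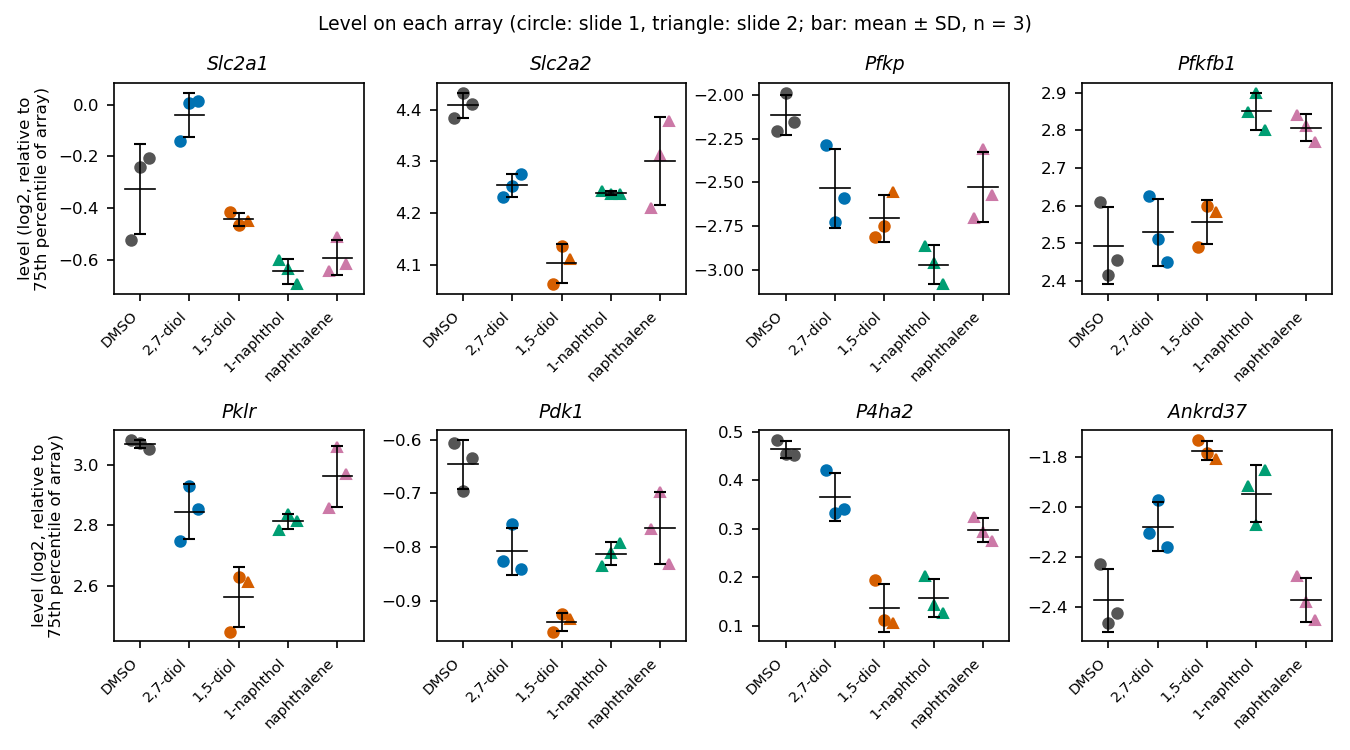
Level (y axis, log2 relative to the array's 75th percentile) on each array of 8 members, by group on the x axis, circles on slide 1 and triangles on slide 2, with the mean and SD (n = 3). The 2,7-Naphthalenediol arrays top Slc2a1, the 1-Naphthol and Naphthalene arrays top Pfkfb1, the 1,5-Naphthalenediol arrays are lowest for Slc2a2, Pklr and Pdk1 and highest for Ankrd37, and Naphthalene overlaps DMSO for Ankrd37.

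In the later steps of glycolysis the liver's own pyruvate kinase fell with each hydroxylated compound. Pklr, which makes pyruvate in the liver and red cells, read 3.08, 3.07 and 3.05 with DMSO, 2.75, 2.93 and 2.85 with 2,7-Naphthalenediol, 2.45, 2.63 and 2.61 with 1,5-Naphthalenediol, 2.79, 2.84 and 2.82 with 1-Naphthol and 2.86, 3.06 and 2.97 with Naphthalene. All arrays of the hydroxylated compounds were below DMSO, and the 1,5-Naphthalenediol arrays below all others. Pklr fell by 0.51 with 1,5-Naphthalenediol (SE 0.063, adjusted p = 0.000204, 0.704-fold), by 0.26 with 1-Naphthol (SE 0.063, adjusted p = 0.016) and by 0.22 with 2,7-Naphthalenediol (SE 0.063, adjusted p = 0.0416). With Naphthalene it was -0.11 (adjusted p = 0.228). The other Pklr probe gave -0.48 with 1,5-Naphthalenediol and, unlike the probe used, passed with Naphthalene (-0.25, adjusted p = 0.00455 over all probes). With the mean of its probes Pklr was called down with Naphthalene too. Compared directly with Naphthalene, neither 1-Naphthol nor 2,7-Naphthalenediol passed for Pklr, Slc2a2 or Pdk1.

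Of the shared later steps, Eno1, the enolase, fell by 0.15 with 1,5-Naphthalenediol (SE 0.046, adjusted p = 0.0362) and by 0.14 with Naphthalene (SE 0.046, adjusted p = 0.0451). Ldha, the lactate dehydrogenase subunit induced by HIF, fell by 0.13 (SE 0.037, adjusted p = 0.0278) and 0.13 (SE 0.037, adjusted p = 0.0251) with the same compounds. The probes of both genes disagree: the other 2 Eno1 probes (adjusted p = 0.0877 and 0.22 over all probes) and the other 2 Ldha probes (adjusted p = 0.257 and 0.13) did not pass with 1,5-Naphthalenediol, and 1 of the other 2 did for each gene with Naphthalene. With the mean of a gene's probes neither gene was called with 1,5-Naphthalenediol. Pgam1, the phosphoglycerate mutase, fell by 0.13 with 1-Naphthol (SE 0.038, adjusted p = 0.0352) and 0.18 with Naphthalene (SE 0.038, adjusted p = 0.0069). Aldoa, the widespread aldolase, and Tpi1, the triose isomerase, fell with Naphthalene alone among the comparisons with DMSO, by 0.18 (SE 0.056, adjusted p = 0.0359) and 0.17 (SE 0.043, adjusted p = 0.0161). For both, 1,5-Naphthalenediol 3 on slide 2 read lower (2.24 for Aldoa, 1.90 for Tpi1) than 1,5-Naphthalenediol 1 and 2 on slide 1 (2.40 and 2.33; 2.05 and 2.01), and with the slide as a block the Naphthalene values were -0.06 with adjusted p = 0.757 and -0.04 with adjusted p = 0.74. Gapdh, Pgk1 and Pkm, the muscle-type pyruvate kinase, passed with no compound on the probe used. Their differences ran from -0.10 to -0.03 for Gapdh, -0.06 to 0.00 for Pgk1 and -0.12 to 0.06 for Pkm. Of the 8 Gapdh probes 2 others passed with Naphthalene (-0.23 and -0.17, adjusted p = 0.0184 and 0.0285 over all probes), so the Gapdh probes disagree.

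Of the pyruvate dehydrogenase kinases, which block pyruvate dehydrogenase, Pdk1 and Pdk2 fell with 1,5-Naphthalenediol, and Pdk1 also with the other hydroxylated compounds. Pdk4, a kinase of this family outside the members, rose with 1,5-Naphthalenediol (0.45, limma adjusted p = 0.0486). Pdk1, a HIF target, read -0.61, -0.70 and -0.64 with DMSO, -0.83, -0.76 and -0.84 with 2,7-Naphthalenediol, -0.96, -0.92 and -0.93 with 1,5-Naphthalenediol, -0.83, -0.81 and -0.79 with 1-Naphthol and -0.77, -0.70 and -0.83 with Naphthalene. The arrays of the hydroxylated compounds were all below DMSO and the 1,5-Naphthalenediol arrays lowest. Pdk1 fell by 0.29 with 1,5-Naphthalenediol (SE 0.041, adjusted p = 0.000479), 0.17 with 1-Naphthol (SE 0.041, adjusted p = 0.0164) and 0.16 with 2,7-Naphthalenediol (SE 0.041, adjusted p = 0.0295), and was -0.12 with Naphthalene (adjusted p = 0.053). All 4 Pdk1 probes kept fell with 1,5-Naphthalenediol; of the other 3 probes none passed with 2,7-Naphthalenediol or 1-Naphthol. Pdk2 read 2.92, 2.86 and 2.93 with DMSO, 2.81, 2.88 and 2.80 with 2,7-Naphthalenediol, 2.61, 2.68 and 2.54 with 1,5-Naphthalenediol, 2.84, 2.87 and 2.82 with 1-Naphthol and 3.01, 2.91 and 2.96 with Naphthalene. Only the 1,5-Naphthalenediol arrays stood apart, and the fall there was 0.29 (SE 0.044, adjusted p = 0.000751).

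Of the gluconeogenesis genes, Fbp1, the fructose bisphosphatase, fell with 1,5-Naphthalenediol. Pck1, the carboxykinase, was close to background: it was well above background on 0 of 3 DMSO arrays, 0 of 3 with 2,7-Naphthalenediol, 3 of 3 with 1,5-Naphthalenediol, 1 of 3 with 1-Naphthol and 0 of 3 with Naphthalene. It read -7.99, -7.12 and -7.65 with DMSO, -6.97, -6.86 and -7.27 with 2,7-Naphthalenediol, -6.56, -6.64 and -6.78 with 1,5-Naphthalenediol, -7.69, -6.84 and -6.95 with 1-Naphthol and -7.75, -7.25 and -7.00 with Naphthalene. The 1,5-Naphthalenediol arrays were the highest, and the DMSO and 1-Naphthol arrays spread widely. The measured difference with 1,5-Naphthalenediol was 0.93. It was 1.86-fold when DMSO readings under the lowest signal counted as above background were raised to that signal. DMSO readings above that signal were kept as they were, so this is not a strict lower bound. Pck1 entered the fit only because it was high with 1,5-Naphthalenediol, so it had to differ there, and its values are a description. Fbp1 fell by 0.27 with 1,5-Naphthalenediol (SE 0.066, adjusted p = 0.0121); with the other compounds it was -0.13 to -0.06 and did not pass. G6pc1, the last enzyme before glucose leaves the liver cell, read 0.09, -0.21 and -0.14 with DMSO, -0.26, -0.35 and -0.39 with 2,7-Naphthalenediol, -0.40, -0.19 and -0.39 with 1,5-Naphthalenediol, -0.22, -0.06 and -0.27 with 1-Naphthol and -0.02, 0.01 and 0.11 with Naphthalene. DMSO array 1 was within the range of the Naphthalene arrays and the 2,7-Naphthalenediol arrays were all below DMSO. No difference from DMSO passed (-0.25, -0.24, -0.10 and 0.12 in the order of those compounds, smallest adjusted p = 0.0674).

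In the HIF pathway itself, the RNA of Hif1a, the regulated subunit, did not pass with any compound, with differences of 0.01 to 0.05 and intervals within -0.09 and 0.15. HIF1A is controlled mainly through its protein, which arrays do not read. Egln3, a prolyl hydroxylase that is also a HIF target, fell by 0.26 with 1,5-Naphthalenediol (SE 0.052, adjusted p = 0.00429) and by 0.23 with 1-Naphthol (SE 0.052, adjusted p = 0.0126). It read -1.42, -1.41 and -1.45 with DMSO, -1.61, -1.64 and -1.82 with 1,5-Naphthalenediol and -1.62, -1.63 and -1.72 with 1-Naphthol. 1,5-Naphthalenediol 3, on slide 2, was the lowest of its group. In the model with the slide block the 1,5-Naphthalenediol value was -0.19 with adjusted p = 0.00648 and the 1-Naphthol value -0.03 with adjusted p = 0.872. With 2,7-Naphthalenediol Egln3 was -0.12 (adjusted p = 0.148, and 0.0427 with the block, which leaves this difference within slide 1 unchanged). With Naphthalene it was -0.13 and did not pass, although those arrays (-1.57 to -1.55) were below all DMSO arrays.

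Among the HIF targets, Ankrd37 and P4ha2 moved in opposite directions. Ankrd37, a small ankyrin-repeat protein, read -2.23, -2.46 and -2.42 with DMSO, -2.10, -1.97 and -2.16 with 2,7-Naphthalenediol, -1.73, -1.79 and -1.81 with 1,5-Naphthalenediol, -1.92, -2.07 and -1.85 with 1-Naphthol and -2.28, -2.38 and -2.45 with Naphthalene. All 9 arrays of the hydroxylated compounds were above all DMSO and all Naphthalene arrays, the 1,5-Naphthalenediol arrays highest. Ankrd37 rose by 0.60 with 1,5-Naphthalenediol (SE 0.077, adjusted p = 0.000268, 1.51-fold), by 0.42 with 1-Naphthol (SE 0.077, adjusted p = 0.00447, 1.34-fold) and by 0.29 with 2,7-Naphthalenediol (SE 0.077, adjusted p = 0.0332, 1.22-fold). With Naphthalene it was 0.00, with an interval of -0.17 to 0.17. With the slide as a block the 1-Naphthol value was 0.47 with adjusted p = 0.115, and the calls of both diols held (adjusted p = 0.000969 and 0.0334).

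P4ha2, a subunit of the enzyme that hydroxylates prolines of collagen, read 0.48, 0.46 and 0.45 with DMSO, 0.42, 0.33 and 0.34 with 2,7-Naphthalenediol, 0.19, 0.11 and 0.10 with 1,5-Naphthalenediol, 0.20, 0.14 and 0.13 with 1-Naphthol and 0.33, 0.29 and 0.27 with Naphthalene. Every treated array was below every DMSO array, with 1,5-Naphthalenediol and 1-Naphthol lowest and overlapping each other. P4ha2 fell by 0.33 with 1,5-Naphthalenediol (SE 0.039, adjusted p = 0.000153), 0.31 with 1-Naphthol (SE 0.039, adjusted p = 0.00101) and 0.17 with Naphthalene (SE 0.039, adjusted p = 0.0115), and was -0.10 with 2,7-Naphthalenediol (adjusted p = 0.116). After allowing for the slide the 1-Naphthol value was -0.26 with adjusted p = 0.0848 and the Naphthalene value -0.12 with adjusted p = 0.374. P4ha1, the other subunit of this kind measured, passed with no compound (-0.05 to 0.04).

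Ndrg1, a stress gene induced by low oxygen, read -3.28, -3.34 and -3.31 with DMSO, -3.06, -3.39 and -3.34 with 2,7-Naphthalenediol, -3.22, -3.32 and -3.37 with 1,5-Naphthalenediol, -3.56, -3.74 and -3.59 with 1-Naphthol and -3.35, -3.25 and -3.36 with Naphthalene. Only the 1-Naphthol arrays stood apart, below all others, and Ndrg1 fell there by 0.32 (SE 0.081, adjusted p = 0.0184; with the slide as a block -0.22 with adjusted p = 0.464). Bnip3, which marks mitochondria for removal, fell by 0.16 with 1-Naphthol (SE 0.043, adjusted p = 0.0207) and 0.14 with Naphthalene (SE 0.043, adjusted p = 0.036). Adm, the vessel-widening peptide adrenomedullin, read 2.08, 2.23 and 2.27 with DMSO, 2.35, 2.26 and 2.40 with 2,7-Naphthalenediol, 2.24, 2.23 and 2.36 with 1,5-Naphthalenediol, 2.04, 1.98 and 1.92 with 1-Naphthol and 2.01, 2.29 and 2.26 with Naphthalene. Its 1-Naphthol arrays were below all DMSO arrays and lowest on average, but the difference from DMSO, -0.21, did not pass (adjusted p = 0.0678). Vegfa, the vessel growth factor, passed with no compound on its brightest probe (-0.01 to 0.07); another Vegfa probe was 0.27 higher with 1,5-Naphthalenediol (adjusted p = 0.0229 over all probes), so the Vegfa probes disagree.

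Many calls ended when an array was left out, in fits that hold fewer arrays. A call that ended without most of the arrays does not rest on a single array. With 1,5-Naphthalenediol 9 of the 13 calls held whichever array of the 2 groups was left out: Slc2a2, Pfkp, Pklr, Pdk1, Pdk2, Fbp1, Egln3, P4ha2 and Ankrd37. The 13 calls with 1,5-Naphthalenediol include Pck1, which entered the fit only because it was high there. There the calls ended for Pfkl without any array but 1,5-Naphthalenediol 3 (adjusted p = 0.0574 to 0.112), Eno1 without any array but 1,5-Naphthalenediol 1 (adjusted p = 0.0565 to 0.113), Ldha without any array but DMSO 3 or 1,5-Naphthalenediol 3 (adjusted p = 0.0544 to 0.0991) and Pck1 without any array but DMSO 2 or 1,5-Naphthalenediol 3 (adjusted p = 0.0637 to 0.0963). With 1-Naphthol the calls of Pfkp, Pfkfb1, P4ha2 and Ankrd37 held throughout. The others ended for Pklr without 1-Naphthol 1 (adjusted p = 0.0509), Egln3 without 1-Naphthol 3 (adjusted p = 0.0548), Slc2a1 without DMSO 2 (adjusted p = 0.0532), DMSO 3 (adjusted p = 0.0604) or 1-Naphthol 3 (adjusted p = 0.0555), Pdk1 without DMSO 1 (adjusted p = 0.0533), DMSO 3 (adjusted p = 0.0571) or 1-Naphthol 1 (adjusted p = 0.0546) and Ndrg1 without DMSO 1 (adjusted p = 0.0504), DMSO 3 (adjusted p = 0.0548) or 1-Naphthol 2 (adjusted p = 0.0751). They ended also for Slc2a2 without any array but DMSO 1 or 1-Naphthol 1 (adjusted p = 0.0521 to 0.0557), Bnip3 without any array but DMSO 2 or 1-Naphthol 1 (adjusted p = 0.0526 to 0.0777) and Pgam1 without any array but DMSO 2 (adjusted p = 0.0746 to 0.118). With Naphthalene those of Pfkfb1, Pgam1 and P4ha2 held. The others ended for Tpi1 without DMSO 3 (adjusted p = 0.0532) or Naphthalene 2 (adjusted p = 0.0533), Ldha without DMSO 1 (adjusted p = 0.0832), Naphthalene 2 (adjusted p = 0.0621) or Naphthalene 3 (adjusted p = 0.0588), Slc2a1 without any array but DMSO 1 or Naphthalene 2 (adjusted p = 0.0557 to 0.1) and Pfkp without any array but DMSO 1 or Naphthalene 2 (adjusted p = 0.0708 to 0.116). They ended also for Aldoa without any array but Naphthalene 1 (adjusted p = 0.0574 to 0.0974), Eno1 without any array but Naphthalene 3 (adjusted p = 0.0673 to 0.139) and Bnip3 without any array but DMSO 2 or Naphthalene 3 (adjusted p = 0.0765 to 0.121). With 2,7-Naphthalenediol none of the 5 calls held throughout. They ended for Slc2a1 without DMSO 1 (adjusted p = 0.0824), 2,7-Naphthalenediol 2 (adjusted p = 0.114) or 2,7-Naphthalenediol 3 (adjusted p = 0.11), Slc2a2 without any array (adjusted p = 0.0655 to 0.102), Pklr without any array (adjusted p = 0.0546 to 0.113), Pdk1 without any array but DMSO 2 or 2,7-Naphthalenediol 2 (adjusted p = 0.0703 to 0.0986) and Ankrd37 without any array but DMSO 1 (adjusted p = 0.0513 to 0.121).

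The slide touched the comparisons unequally. A fixed block for the slide in the model left 12 of the 13 calls with 1,5-Naphthalenediol, beside 22.1% of all genes, and ended that of Eno1. Pck1, which entered the fit only through 1,5-Naphthalenediol, is among the 12. The block gave 7 calls with 2,7-Naphthalenediol, beside 15.1%, which were the 5 without it plus Pfkp and Egln3. All arrays of that comparison lie on slide 1. The block therefore leaves its differences unchanged, and only the estimated spread and the p-values move. With 1-Naphthol Pfkp alone was called of the 12, beside 1.13%, and with Naphthalene none of 10, beside 0.727% (limma; 5 members had an unadjusted p under 0.05). The block raised the standard error of the 1-Naphthol change of Ankrd37 from 0.077 to 0.14, as only 1,5-Naphthalenediol lies on both slides. For 1-Naphthol and Naphthalene against DMSO, compound and slide cannot be told apart beyond that link.

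**Figure D3:**
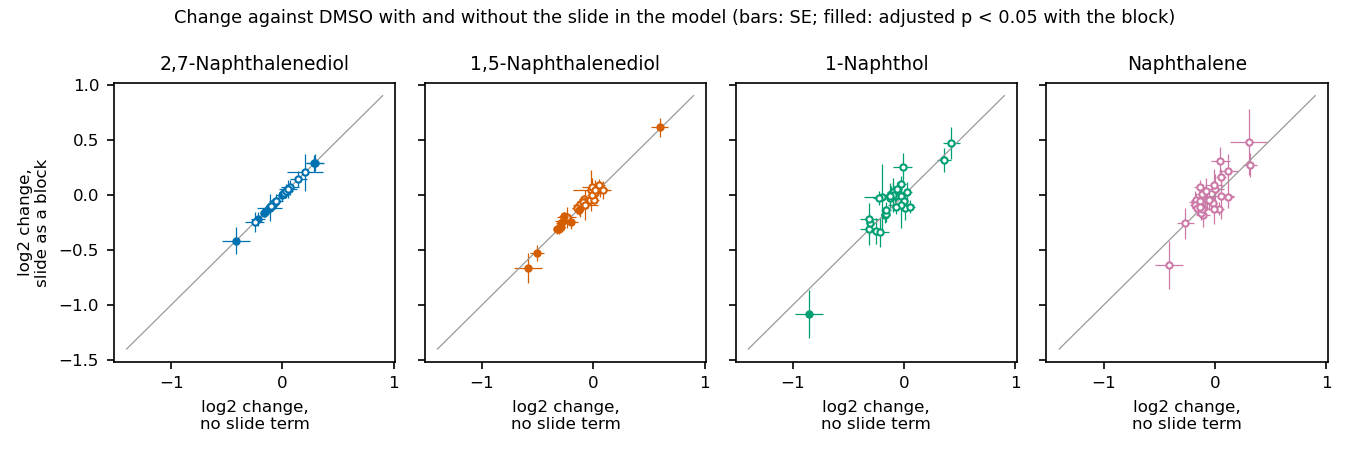
Log2 change of each member except Pck1 against DMSO without the slide in the model (x axis) and with the slide as a block (y axis), one panel per compound, bars as the standard error and filled points past the threshold with the block. The diols lie near the diagonal, while 1-Naphthol and Naphthalene scatter around it with wider bars, and in those panels Pfkp with 1-Naphthol is the only filled point.

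The compounds were compared with each other in 6 pairs at the same dose and time, with p adjusted over all genes within a pair; adjusted over the genes of all 6 pairs together, a choice made after the data were seen, 36 of the 37 calls below held (all but Fbp1 between the diols). 1-Naphthol and Naphthalene, which differ by the hydroxyl group and share slide 2, differed in 1 member of 30, beside 2.44% of all genes. Such a share lies near that of all genes, also with the slide block below, and nothing is read from the count. The member was Ankrd37, 0.42 higher with 1-Naphthol (SE 0.077, adjusted p = 0.0158, 95% interval 0.25 to 0.59). It was also the 1 member called with the slide as a block (adjusted p = 0.0194, beside 3.06% of all genes). On slide 2 alone it did not pass (adjusted p = 0.109), nor did another member (limma; 10 had an unadjusted p under 0.05, and 0.268% of all genes passed). The call ended for Ankrd37 without 1-Naphthol 1 (adjusted p = 0.0695), 1-Naphthol 3 (adjusted p = 0.0653) or Naphthalene 2 (adjusted p = 0.0541). The intervals of the 28 other members that were well above background on all arrays lay within -0.85 and 0.24, which does not show that both compounds act alike on them. Among these, Pfkp was -0.44 (adjusted p = 0.0881) and Ndrg1 -0.31 (adjusted p = 0.0695). With p adjusted over the 6 pairs together 5 members passed here: Ankrd37 and Tpi1 (0.15) were higher with 1-Naphthol, and Pfkp, Ndrg1 and P4ha2 (-0.14) lower.

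The diol isomers, which differ in where the hydroxyl groups sit, differed in 8 members, beside 14.7% of all genes. With 1,5-Naphthalenediol Slc2a1 (-0.40, SE 0.076, adjusted p = 0.00439), Pklr (-0.28, SE 0.063, adjusted p = 0.0109), P4ha2 (-0.23, SE 0.039, adjusted p = 0.00255) and Pdk2 (-0.22, SE 0.044, adjusted p = 0.00635) were lower than with 2,7-Naphthalenediol, and each held whichever array was left out. Fbp1 (-0.22), Pfkl (-0.20) and Slc2a2 (-0.15) were also lower, and Ankrd37 was 0.30 higher (SE 0.077, adjusted p = 0.0212). The slide block left 6 of these calls, beside 10.9% of all genes, and ended those of Fbp1 and Slc2a2. On slide 1 alone P4ha2 and Pklr passed (adjusted p = 0.0423 and 0.0485), beside 8.04%. The other calls ended for Ankrd37 without any array but 2,7-Naphthalenediol 2 or 1,5-Naphthalenediol 3 (adjusted p = 0.0521 to 0.0781), Slc2a2 without any array but 1,5-Naphthalenediol 2 (adjusted p = 0.0578 to 0.0956), Pfkl without any array but 1,5-Naphthalenediol 3 (adjusted p = 0.0511 to 0.146) and Fbp1 without any array but 1,5-Naphthalenediol 2 (adjusted p = 0.0599 to 0.168). Hif1a (-0.01, interval -0.11 to 0.08), Pgk1 (0.03, interval -0.05 to 0.10) and G6pc1 (0.01, interval -0.18 to 0.20) were among the 22 that did not pass.

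Each diol was also set against Naphthalene and against 1-Naphthol. 1,5-Naphthalenediol differed from Naphthalene in 10 members, beside 24.9% of all genes, and 2,7-Naphthalenediol in 6, beside 15.8%. Ankrd37 was higher than with Naphthalene by 0.59 with 1,5-Naphthalenediol (SE 0.077, adjusted p = 0.000299) and by 0.29 with 2,7-Naphthalenediol (SE 0.077, adjusted p = 0.0263). G6pc1 was lower with both, by 0.36 (SE 0.086, adjusted p = 0.0114) and 0.37 (SE 0.086, adjusted p = 0.0167), although neither diol nor Naphthalene passed against DMSO. Pfkfb1 was lower with both (-0.25 and -0.28) and Aldoa higher (0.23 and 0.21). 1,5-Naphthalenediol was further below Naphthalene for Pklr (-0.40), Pdk2 (-0.35), Pfkl (-0.32), Slc2a2 (-0.20), Pdk1 (-0.17) and P4ha2 (-0.16), and 2,7-Naphthalenediol was above it for Slc2a1 (0.55, 1.47-fold) and Tpi1 (0.18). Under the slide block Ankrd37, Pklr and Pdk2 still passed between 1,5-Naphthalenediol and Naphthalene, beside 8.47% of all genes (adjusted p = 0.0117, 0.036 and 0.00172), Egln3 was added (-0.26 with adjusted p = 0.00977), and none passed between 2,7-Naphthalenediol and Naphthalene (limma; 5 members had an unadjusted p under 0.05, and 0.0202% of all genes passed). Left-out arrays ended the call between 1,5-Naphthalenediol and Naphthalene for Aldoa without 1,5-Naphthalenediol 1 (adjusted p = 0.0534). Between 2,7-Naphthalenediol and Naphthalene they ended it for G6pc1 without 2,7-Naphthalenediol 3 (adjusted p = 0.0633), Pfkfb1 without 2,7-Naphthalenediol 3 (adjusted p = 0.0532), Tpi1 without 2,7-Naphthalenediol 1 (adjusted p = 0.0534), 2,7-Naphthalenediol 3 (adjusted p = 0.0683) or Naphthalene 2 (adjusted p = 0.0597), Ankrd37 without any array but 2,7-Naphthalenediol 3 or Naphthalene 1 (adjusted p = 0.0566 to 0.0873) and Aldoa without any array but Naphthalene 1 (adjusted p = 0.0515 to 0.0765).

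Against 1-Naphthol, 1,5-Naphthalenediol differed in 6 members, beside 9.16% of all genes, and 2,7-Naphthalenediol in 6, beside 14.7%. The HIF targets Adm and Ndrg1 were higher with both diols: Adm by 0.30 (SE 0.077, adjusted p = 0.0342) and 0.36 (SE 0.077, adjusted p = 0.0132), Ndrg1 by 0.33 (SE 0.081, adjusted p = 0.0284) and 0.37 (SE 0.081, adjusted p = 0.0139), 1,5-Naphthalenediol first. Pfkfb1 was lower with both (-0.29 and -0.32). With 1,5-Naphthalenediol Pdk2 (-0.23) and Pklr (-0.25) were lower and Bnip3 (0.15) higher; with 2,7-Naphthalenediol Slc2a1 (0.60, 1.52-fold), Pfkp (0.44) and P4ha2 (0.21) were higher. Under the slide block Pdk2 alone held between 1,5-Naphthalenediol and 1-Naphthol (adjusted p = 0.022, beside 1.87% of all genes). None held between 2,7-Naphthalenediol and 1-Naphthol (limma; 6 members had an unadjusted p under 0.05, and 0.0808% of all genes passed). Left-out arrays ended the call between 1,5-Naphthalenediol and 1-Naphthol for Pfkfb1 without 1,5-Naphthalenediol 1 (adjusted p = 0.0521) or 1-Naphthol 2 (adjusted p = 0.0538), Pklr without any array but 1,5-Naphthalenediol 2 or 1,5-Naphthalenediol 3 (adjusted p = 0.0684 to 0.111), Adm without any array (adjusted p = 0.0601 to 0.118), Bnip3 without any array but 1,5-Naphthalenediol 3 (adjusted p = 0.0554 to 0.145) and Ndrg1 without any array but 1,5-Naphthalenediol 3 (adjusted p = 0.0502 to 0.104). Between 2,7-Naphthalenediol and 1-Naphthol they ended it for Ndrg1 without 1-Naphthol 2 (adjusted p = 0.0569) and Pfkp without any array but 2,7-Naphthalenediol 2 (adjusted p = 0.0587 to 0.12).

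**Figure D4:**
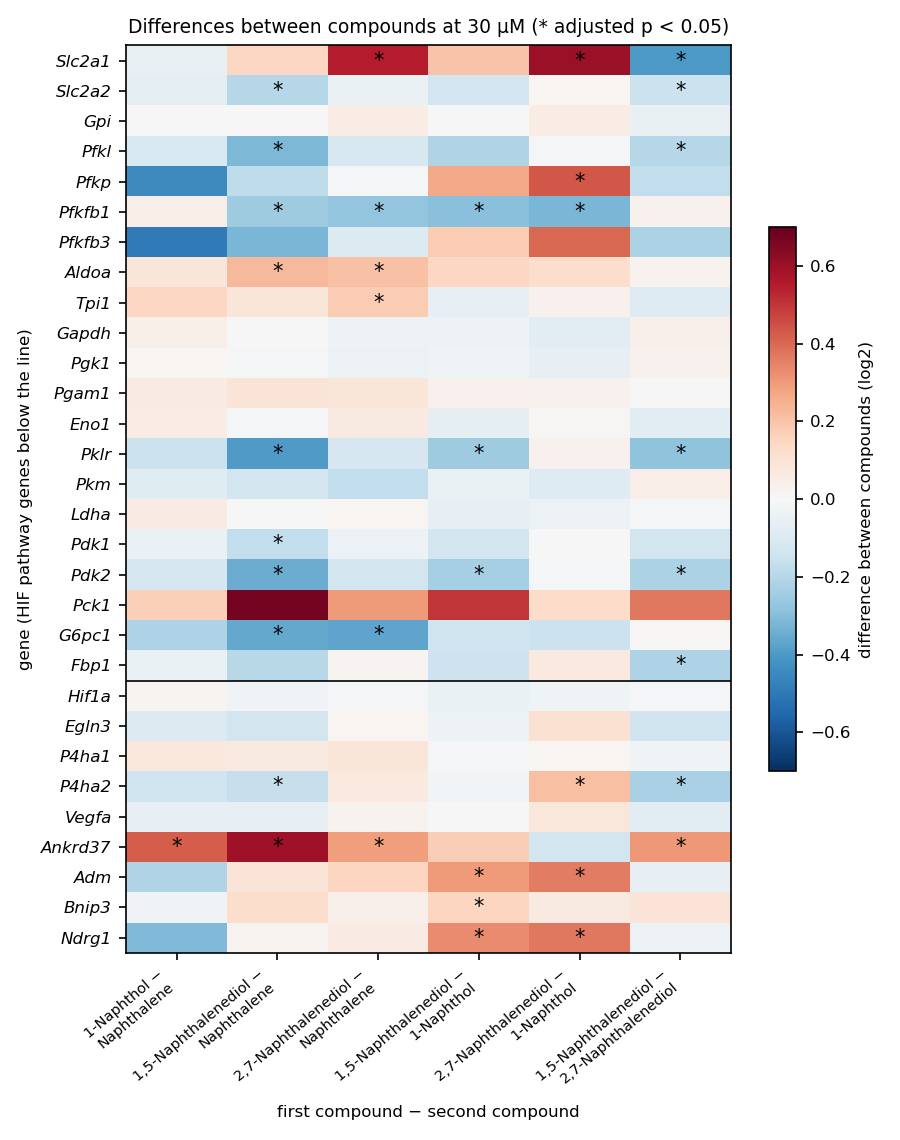
Difference in log2 level between compounds (colour) for each member (y axis) in each of the 6 pairs (x axis, first minus second compound), with a star where adjusted p was under 0.05; the colour scale ends at 0.7 either way. Ankrd37 is the only star between 1-Naphthol and Naphthalene (0.42), and Slc2a1 has the strongest colours where 2,7-Naphthalenediol is compared with Naphthalene (0.55) or 1-Naphthol (0.60).

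Of 41 other tested genes of glycolysis, pyruvate use and gluconeogenesis, 4 rose and 13 fell with 1,5-Naphthalenediol, 2 and 7 with 1-Naphthol, 4 and 6 with Naphthalene, and 2 and 6 with 2,7-Naphthalenediol. Of all genes 22.1%, 20.8%, 25.1% and 11.0% were called in that order. With 1-Naphthol and Naphthalene the list's share lay close to that of all genes, and nothing is read from it. The list's medians ran from -0.08 with 1,5-Naphthalenediol to -0.04 with 1-Naphthol. The largest changes that passed with 1,5-Naphthalenediol were those of Slc2a5 (-0.74, adjusted p = 1.4e-05), Pdk4 (0.45, adjusted p = 0.0486) and Aldoc (-0.40, adjusted p = 0.000455); Slc2a5 carries fructose, Pdk4 is the pyruvate dehydrogenase kinase of fasting, and Aldoc is an aldolase. With 1-Naphthol they were those of Slc2a5 (-0.34, adjusted p = 0.00446), Aldoc (-0.34, adjusted p = 0.00292) and Dlat (-0.28, adjusted p = 0.00303), the last a subunit of pyruvate dehydrogenase. With Naphthalene they were those of Pdk4 (0.64, adjusted p = 0.0114), Adpgk (0.25, adjusted p = 0.0029) and Dlat (-0.24, adjusted p = 0.00533), Adpgk being a glucose kinase that uses ADP. With 2,7-Naphthalenediol those of Slc2a5 (-0.32, adjusted p = 0.0108) and Pdk3 (-0.31, adjusted p = 0.0328) were among the largest, Pdk3 being another pyruvate dehydrogenase kinase. In the model with the slide block 2 rose and 11 fell with 2,7-Naphthalenediol, beside 15.1% of all genes, and 3 rose and 11 fell with 1,5-Naphthalenediol, beside 22.1%. None passed with 1-Naphthol or Naphthalene (limma), beside 1.13% and 0.727% of all genes, and nothing is read from that.

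Of 15 glycogen genes, 3 rose and 4 fell with 1,5-Naphthalenediol, 1 and 4 with 1-Naphthol, 3 and 5 with Naphthalene, and 1 and 1 with 2,7-Naphthalenediol, with medians of -0.12, -0.01, -0.02 and -0.09 in that order. Beside the 22.1%, 20.8%, 25.1% and 11.0% of all genes called, the list's share was close with 2,7-Naphthalenediol, from which nothing is read. Gys2, the liver glycogen synthase, fell by 0.58 with 1,5-Naphthalenediol (adjusted p = 2.3e-05), 0.24 with 1-Naphthol (adjusted p = 0.00963), 0.20 with Naphthalene (adjusted p = 0.019, and up to 0.0704 with 1 array left out) and 0.19 with 2,7-Naphthalenediol (adjusted p = 0.0357). Phkb, a subunit of phosphorylase kinase, which starts glycogen breakdown, rose by 0.60 with 2,7-Naphthalenediol, 0.51 with 1-Naphthol, 0.37 with 1,5-Naphthalenediol and 0.36 with Naphthalene (adjusted p = 0.00656, 0.00754, 0.0265 and 0.0289). Further named changes were Ppp1r3c, which brings a phosphatase to glycogen, with 1,5-Naphthalenediol (0.33) and Naphthalene (0.28), its relative Ppp1r3d with 1-Naphthol (-0.45) and Pgm1, a phosphoglucomutase, with Naphthalene (-0.30). With the slide as a block no glycogen gene passed with 1-Naphthol or Naphthalene (limma), beside 1.13% and 0.727% of all genes. There adjusted p was 0.0806 and 0.133 for Phkb and 0.226 and 0.304 for Gys2.

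Of 19 regulators of glucose genes, 5 rose and 2 fell with 1,5-Naphthalenediol, 4 and 1 with 1-Naphthol, 8 and 1 with Naphthalene, and 2 and 0 with 2,7-Naphthalenediol, with medians of 0.11, 0.10, 0.19 and 0.14 in that order. Beside the same shares of all genes, the list's share was close with 2,7-Naphthalenediol (11.0% of all genes) and not far above with 1-Naphthol (20.8%), and nothing is read from these. The largest that passed with 1,5-Naphthalenediol were Klf15 (0.57, adjusted p = 0.0012), Insr (0.42, adjusted p = 0.000567) and Cebpb (0.28, adjusted p = 0.000924), a transcription factor of fasting, the insulin receptor and a liver transcription factor. With Naphthalene they were Txnip (0.46, adjusted p = 0.00357), Cebpa (0.38, adjusted p = 0.00307) and Irs2 (0.36, adjusted p = 0.00768), Txnip being a brake on glucose uptake and Irs2 an insulin receptor substrate. With 1-Naphthol they were Creb1 (-0.26, adjusted p = 0.0319), Crtc2 (0.24, adjusted p = 0.021) and Insr (0.24, adjusted p = 0.0164), where Creb1 and Crtc2 carry the glucagon signal; with the slide as a block Crtc2 was -0.02, the opposite direction. With 2,7-Naphthalenediol they were Sik1 (0.39, adjusted p = 0.0419) and Cebpb (0.20, adjusted p = 0.0162). With the slide as a block 1 of these regulators passed with 1-Naphthol and 1 with Naphthalene, beside 1.13% and 0.727% of all genes. In both cases it was Cebpb, which was also called up with these compounds without the block (0.23 and 0.31). Its limma values with the block were 0.34 (adjusted p = 0.045) and 0.43 (adjusted p = 0.0353). For Txnip the Naphthalene value with the block was 0.16 (adjusted p = 0.416). For Cebpa it was then 0.46 (adjusted p = 0.0744) and for Irs2 0.15 (adjusted p = 0.518).

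Of 33 other HIF pathway genes and targets, 5 rose and 7 fell with 1,5-Naphthalenediol, 5 and 7 with 1-Naphthol, 5 and 4 with Naphthalene, and 4 and 3 with 2,7-Naphthalenediol, so that rises and falls stood side by side with each compound. The medians were 0.01, 0.01, -0.03 and 0.03 in that order. With Naphthalene the list's share called was close to the 25.1% of all genes, and nothing is read from it; beside the others stand 22.1%, 20.8% and 11.0%. The largest that passed with 1,5-Naphthalenediol were Epas1 (0.55, adjusted p = 0.0187), Loxl2 (-0.53, adjusted p = 0.00375) and Angptl4 (-0.50, adjusted p = 0.000499); Epas1 codes for the HIF2 alpha subunit, Loxl2 crosslinks collagen and Angptl4 inhibits lipoprotein lipase. With Naphthalene they were Epas1 (0.53, adjusted p = 0.0228), Wsb1 (-0.43, adjusted p = 0.00185) and Hmox1 (-0.41, adjusted p = 0.0032), the last being heme oxygenase, which is also a target of the antioxidant factor NRF2. With 1-Naphthol they were Loxl2 (-0.44, adjusted p = 0.0136), Edn1 (-0.43, adjusted p = 0.0395) and Wsb1 (-0.43, adjusted p = 0.0017), Edn1 being endothelin and Wsb1 part of a ubiquitin ligase. With 2,7-Naphthalenediol they were Pnrc1 (0.50, adjusted p = 0.0105), Hmox1 (0.42, adjusted p = 0.00488) and Angptl4 (-0.41, adjusted p = 0.00618). With the slide as a block Wsb1 was the 1 call of this list with 1-Naphthol (-0.61, adjusted p = 0.016) and with Naphthalene (-0.62, adjusted p = 0.0347), beside 1.13% and 0.727% of all genes.

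Of the largest changes that passed, up to 3 in each of these 4 lists, 8 of 12 with 1,5-Naphthalenediol, 6 of 12 with 1-Naphthol, 9 of 12 with Naphthalene and 6 of 10 with 2,7-Naphthalenediol passed whichever array was left out. With 1,5-Naphthalenediol the call ended for Epas1 without DMSO 1 (adjusted p = 0.068), 1,5-Naphthalenediol 1 (adjusted p = 0.0521) or 1,5-Naphthalenediol 2 (adjusted p = 0.0612), Pdk4 without any array but 1,5-Naphthalenediol 3 (adjusted p = 0.0647 to 0.167), Phkb without any array but DMSO 1 or 1,5-Naphthalenediol 3 (adjusted p = 0.0672 to 0.105) and Ppp1r3c without any array but DMSO 1 or 1,5-Naphthalenediol 3 (adjusted p = 0.0518 to 0.106). With 1-Naphthol it ended for Creb1 without any array but 1-Naphthol 3 (adjusted p = 0.063 to 0.108), Crtc2 without any array but DMSO 2 (adjusted p = 0.0518 to 0.0648), Edn1 without any array but DMSO 1 (adjusted p = 0.0525 to 0.139), Insr without any array but DMSO 1 or 1-Naphthol 1 (adjusted p = 0.0572 to 0.0655), Loxl2 without DMSO 2 (adjusted p = 0.0522) or 1-Naphthol 2 (adjusted p = 0.0547) and Ppp1r3d without DMSO 2 (adjusted p = 0.0641), 1-Naphthol 2 (adjusted p = 0.06) or 1-Naphthol 3 (adjusted p = 0.0706). With Naphthalene it ended for Epas1 without DMSO 1 (adjusted p = 0.0742) or DMSO 3 (adjusted p = 0.0511), Phkb without any array but DMSO 1 or Naphthalene 3 (adjusted p = 0.0577 to 0.11) and Ppp1r3c without any array but DMSO 1 (adjusted p = 0.0785 to 0.18). With 2,7-Naphthalenediol it ended for Cebpb without DMSO 2 (adjusted p = 0.0506), DMSO 3 (adjusted p = 0.059) or 2,7-Naphthalenediol 2 (adjusted p = 0.0665), Gys2 without any array (adjusted p = 0.0607 to 0.106), Pdk3 without any array but 2,7-Naphthalenediol 1 (adjusted p = 0.0643 to 0.12) and Sik1 without any array but 2,7-Naphthalenediol 1 (adjusted p = 0.0572 to 0.149).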

How the data were processed

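RNA of 15 hepatocyte cultures was labelled with Cy3 and hybridised to 1-colour Agilent rat arrays, per the labels' protocols. The deposited files hold Agilent Feature Extraction intensity values, background-subtracted by the scanner software per the file headers; any further processing by the authors is not given in the sources used here. Groups came from the labels. Here log2 of the processed signal minus each array's 75th percentile was taken, control spots and outlier spots were left out, spots of a probe were averaged, and a probe was kept where 1 group or more had it well above background on each of its arrays (23555 probes). The brightest probe stood for a gene. Probes were named by transcript accession through RefSeq's gene table (GRCr8): of 45598 gene probes, 21229 matched 1 symbol. A model of 5 group means was fitted with limma 3.58.1 (R 4.3.3) over 19803 genes, with moderated tests and Benjamini-Hochberg adjustment within each comparison. The fit was tested on simulated data without a slide effect, which cannot show how the slide bears on the comparisons. Alternatives were slide or replicate number as a block, normexp (offset 50, on the median signal), quantile normalization, no filter, the mean of a gene's probes, only the arrays compared, 1 slide, each array left out, and, added after the data were seen, adjustment over the 6 pairs of compounds together. The array number limits the precision.

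The genes and lists were chosen with earlier results of these data known. Every member that passed against DMSO was named, with values per array for those past 0.3 on the log2 scale against DMSO or between compounds, and in each of the 4 other lists the 3 largest changes that passed, of which 1 is not reported here.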

Additional observations from a re-analysis of the deposited data

How the results depend on the processing

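The counts of members called were 20 (moderated F test over the 5 groups), 5, 13, 12 and 10 against DMSO (in turn for 2,7-Naphthalenediol, then 1,5-Naphthalenediol, then 1-Naphthol, then Naphthalene) and 6, 10, 1, 6, 6 and 8 between compounds (2,7-Naphthalenediol and 1,5-Naphthalenediol against Naphthalene, 1-Naphthol against Naphthalene, 2,7-Naphthalenediol and 1,5-Naphthalenediol against 1-Naphthol, and 1,5-Naphthalenediol against 2,7-Naphthalenediol). Here are the counts that moved by over 1.5 times; the cause was not tested, except that the smaller fits hold fewer arrays. With slide as a block the F test gave 11, 1-Naphthol 1 and Naphthalene 0 against DMSO, and the pairs 0 for 2,7-Naphthalenediol against Naphthalene, 4 for 1,5-Naphthalenediol against Naphthalene, 0 for 2,7-Naphthalenediol against 1-Naphthol and 1 for 1,5-Naphthalenediol against 1-Naphthol. Without the filter on dim probes the F test gave 9, 2,7-Naphthalenediol 0, 1-Naphthol 6 and Naphthalene 2 against DMSO, and the pairs 2 (2,7-Naphthalenediol against Naphthalene), 0 (1-Naphthol against Naphthalene), 0 (1,5-Naphthalenediol against 1-Naphthol) and 4 (the diols). With only the arrays compared the counts were 0, 8 and 4 against DMSO (2,7-Naphthalenediol, 1,5-Naphthalenediol, Naphthalene) and 3, 4, 0, 0 and 1 in the pairs (2,7-Naphthalenediol, then 1,5-Naphthalenediol, then 1-Naphthol against Naphthalene, 1,5-Naphthalenediol against 1-Naphthol, the diols). Within 1 slide 2,7-Naphthalenediol against DMSO gave 1, 1-Naphthol against Naphthalene 0 and the diols 2. Quantile normalization gave 3 for 2,7-Naphthalenediol against DMSO, where Pklr and Slc2a2 were no longer called. In that comparison normexp ended the calls of Slc2a2 and Pdk1. Normexp gave 4 for 1-Naphthol against Naphthalene and 5 for the diols. Adjusting over the 6 pairs together gave 5 for 1-Naphthol against Naphthalene. Where limma called 0 members, between 5 and 13 had an unadjusted p under 0.05.

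Leaving out each array gave 0 to 2, 10 to 12, 6 to 10 and 4 to 7 members against DMSO, in the order above, and 2 to 6, 9 to 12, 0 to 1, 4 to 6, 1 to 6 and 4 to 6 in the pairs; the F test gave 16 to 20. All 77 calls of members kept their direction under each of these settings, and 29 stayed past the threshold with the slide block, 35 without the filter, 35 with only the arrays compared, 66 with normexp, 66 with quantile normalization and 74 with the mean of a gene's probes. Of the 46 largest changes in the other lists, Crtc2 with 1-Naphthol turned to -0.022 with the slide block. Under normexp the split of all genes called between 1-Naphthol and Naphthalene moved from 206 higher and 277 lower to 222 and 593, and under quantile normalization to 300 and 238.

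The replicate numbers did not pair the arrays: 2 of 30 same-numbered pairs across groups correlated above 0.1, and for 3 of 15 arrays the closest match had the same number. With the replicate block, 1-Naphthol against Naphthalene gave 2 members, 71 of the 77 calls held, and the other counts moved by less than 1.5 times.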
